A study of Mus musculus with 12 samples.

Results

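The tumor necrosis factor (TNF) ligands, their receptors and the adaptors that carry their signal were examined in cortex of aged E4FAD mice given DPAn-6 or vehicle. The members were the protein-coding genes of the count table whose mouse symbol starts with Tnfsf or Tnfrsf and a number, together with Tnf, Lta, Ltb, Ltbr, Fas, Fasl, Cd40, Cd40lg, Tradd and Traf1 to Traf7. The rule gave 47 genes of the 50563 rows of the table, with 16 ligands, 23 receptors and 8 adaptors. Of these 47 genes, 30 had enough reads to be tested by edgeR, whose filter on low counts left 15688 genes of the table. The 30 were 5 of the 16 ligands, 17 of the 23 receptors and all 8 adaptors.

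E4FAD mice carry 2 targeted copies of human APOE4 in place of the mouse gene (APOE4+/+) and 1 set of the 5xFAD transgenes (5FAD-/+), which encode human proteins that lead to amyloid plaques. All 12 mice had this genotype. The 7 CTRL mice were gavaged with vehicle, and the 5 DPAn-6 mice received docosapentaenoic acid of the omega-6 series at 700 mg/kg daily for 3 weeks. The same antioxidants, alpha-tocopherol and palmitoyl ascorbic acid, were given to both groups. The ages were 12 months (2 CTRL and 2 DPAn-6 mice) and 14 months (5 CTRL and 3 DPAn-6 mice). The CTRL group held 4 females and 3 males and the DPAn-6 group 3 females and 2 males. No covariate for sex was fitted. There was no group without the transgenes, and each library came from 1 mouse. The neuron markers Snap25 and Slc17a7 were high in every library (at least 1718 and 1217 CPM, the count divided by the library's total on genes and scaled to a common total).

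Most TNF superfamily ligands are membrane proteins that act as trimers, and several, TNF among them, can be cut from the surface by proteases. The receptors fall into those with a death domain, which can recruit caspases through adaptors such as TRADD, those without one, which bind TRAF proteins, and decoy receptors that bind a ligand without full signaling. TRAF proteins link the receptors to NF-kB and kinase pathways. In brain, TNF and several relatives are made largely by microglia, while TNFR1 is found on many cell types and TNFR2 mainly on microglia and endothelium. Whole tissue was measured, so fewer cells of a type and less RNA per cell cannot be told apart in any of the values that follow.

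Counts of 12 libraries ranged from 15208803 to 26520251 reads on genes. CTRL replicate 2 had the most RNA of Ttr, the transthyretin gene of the choroid plexus, at 1530 CPM against a CTRL median of 24.1. It was also the highest CTRL mouse for 16 of the 30 members (53.3%, against 18.7% of all genes tested). CTRL replicate 5 had a high sum of choroid plexus markers too, at 1039 CPM against 1681 in replicate 2. Replicate 5 was the highest CTRL mouse for 0 of the 30 members (10.7% of all genes tested). A link of the members to choroid plexus RNA was not tested. CTRL replicate 3 was the highest CTRL mouse for 6 of the 30 members (20%, against 30.5% of all genes tested). It was the lowest for 7 of the 30 (23.3%, against 39.3% of all genes tested). Those 7 members, Ltbr, Tnfrsf12a, Tnfrsf25, Tradd, Traf2, Traf3 and Traf7, had a median GC content of 57.4% against 52.3% in the other 23. For Tnfsf10, Tnfsf12, Tnfrsf12a, Tnfrsf1a, Tnfrsf1b, Tnfrsf14, Tnfrsf21 and Traf3, values without CTRL replicate 2 or 3 are also given.

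Most ligands of the family had few or no reads in this tissue. Tnf (ENSMUSG00000024401, chromosome 17, 35199381 to 35202007, GRCm38), the founding member, had 3, 1, 3, 6, 4, 1 and 4 reads in the 7 CTRL mice. In the 5 DPAn-6 mice it had 2, 1, 1, 1 and 2 reads. The 22 reads of CTRL and 7 of DPAn-6 were too few to pass the filter, and the counts of the groups overlapped. In a fit without the filter the log2 fold change of DPAn-6 over CTRL was -1.27 (edgeR unadjusted p = 0.0369, adjusted p = 0.437), and the two-sided exact permutation test of log2 CPM gave p = 0.0391.

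Most of the other untested ligands had about as few reads. Tnfsf4, which encodes OX40 ligand, had 0 reads in every library. Cd40lg, Tnfsf14, Tnfsf15 and Tnfsf18 had at most 2 reads in any library, Fasl at most 3, Tnfsf11, the RANK ligand, at most 4 and Lta at most 6. Tnfsf9 reached 12 reads and Ltb, which encodes lymphotoxin beta, 14. Among the receptors, Tnfrsf18 and Tnfrsf26 had at most 4 reads, Tnfrsf17 at most 8, Tnfrsf13c at most 10, Cd40 at most 14 and Tnfrsf9 at most 15. For 13 of the 17 untested members no library held more than 10 reads, so that only large differences in them could be detected at this depth.

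Of the 17 untested members, Tnf and 3 others had an exact permutation p below 0.05. The share was 15.8% in the genes that passed the filter, a set that does not include these members. Tnfrsf9, which encodes the costimulatory receptor CD137, had 6, 4, 3, 6, 8, 4 and 5 reads in CTRL and 15, 9, 8, 5 and 13 in DPAn-6 (two-sided exact permutation p = 0.0126). Tnfrsf17, which encodes the plasma cell receptor BCMA, had 6, 5, 4, 4, 4, 4 and 8 reads in CTRL and 4, 4, 4, 0 and 3 in DPAn-6 (exact permutation p = 0.0101). Tnfsf18, the ligand of GITR, had 1, 1, 0, 1, 0, 2 and 2 reads in CTRL and 0 in every DPAn-6 mouse (exact permutation p = 0.0152). A count of 0 has a log2 CPM set by the pseudocount of 0.5 and the library total. The permutation p of Tnfsf18 and Tnfrsf17, which had 0 reads in DPAn-6 replicate 4, therefore depends on depth too. Without the filter the unadjusted edgeR p of Tnfrsf9, Tnfrsf17 and Tnfsf18 was 0.0338, 0.0760 and 0.00943. The adjusted edgeR p was 0.432, 0.541 and 0.272, so none was called.

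Levels of different members were compared as CPM per kilobase of exon, since longer transcripts yield more reads. Tnfrsf21, which encodes death receptor 6, was highest in CTRL, at 22.7 ± 1.70 CPM per kilobase (SD, n = 7). Tnfrsf19, which encodes the receptor TROY, had 15.7 ± 0.642 on the same scale and Traf3 10.7 ± 1.47. The values of the 7 CTRL mice did not overlap between these 3 genes. The next members in order, Tnfrsf1a (8.29 ± 1.31) and Traf7 (7.96 ± 1.40), did not differ beyond their SD. Tnfsf12 (5.52 ± 2.04) and Ltbr (5.36 ± 1.32) followed and likewise lay within 1 SD of each other. Traf6 (3.32 ± 0.303), Tradd (2.84 ± 0.700) and Traf4 (2.59 ± 0.421) completed the 10 highest, and Traf6 and Tradd also overlapped.

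Among ligands Tnfsf12, which encodes TWEAK, stood above the rest by this measure. Tnfsf10, which encodes TRAIL, had 0.686 ± 0.107 CPM per kilobase in CTRL, Tnfsf13b, which encodes BAFF, had 0.392 ± 0.0836, Tnfsf8, which encodes CD30 ligand, had 0.381 ± 0.0873, and Tnfsf13, which encodes APRIL, had 0.369 ± 0.153. The last 3 did not differ beyond their spread. Of the exon bases of Tnfsf12 and Tnfsf13, 48.3% and 60.1% lie also in Tnfsfm13, an annotated read-through transcript of both on the same strand, to which 2 to 8 reads per library were assigned. Reads in the shared bases cannot be assigned to 1 of these genes, so both counts are uncertain. The level per kilobase still divides by the full exon length, so for both genes it can be too low. Their place in the order of levels is therefore uncertain.

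Receptors were in several cases present where their ligand was close to 0. Tnfrsf11a, which encodes RANK, had 1.68 ± 0.149 CPM per kilobase in CTRL, and its soluble decoy Tnfrsf11b, osteoprotegerin, 0.867 ± 0.159, while RANK ligand had 0 to 4 reads per library. Ltbr and Tnfrsf14, the receptors for LIGHT, were both tested, while Tnfsf14, which encodes LIGHT, had 0 to 2 reads. Tnfrsf1a was higher per kilobase than Tnfrsf1b (2.56 ± 0.423), with their ligand Tnf at 1 to 6 reads. The lowest tested members were Traf1, at 0.0844 ± 0.0325, and Tnfrsf10b, the signaling receptor for TRAIL in mice, at 0.112 ± 0.0524 CPM per kilobase.

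**Figure D1:**
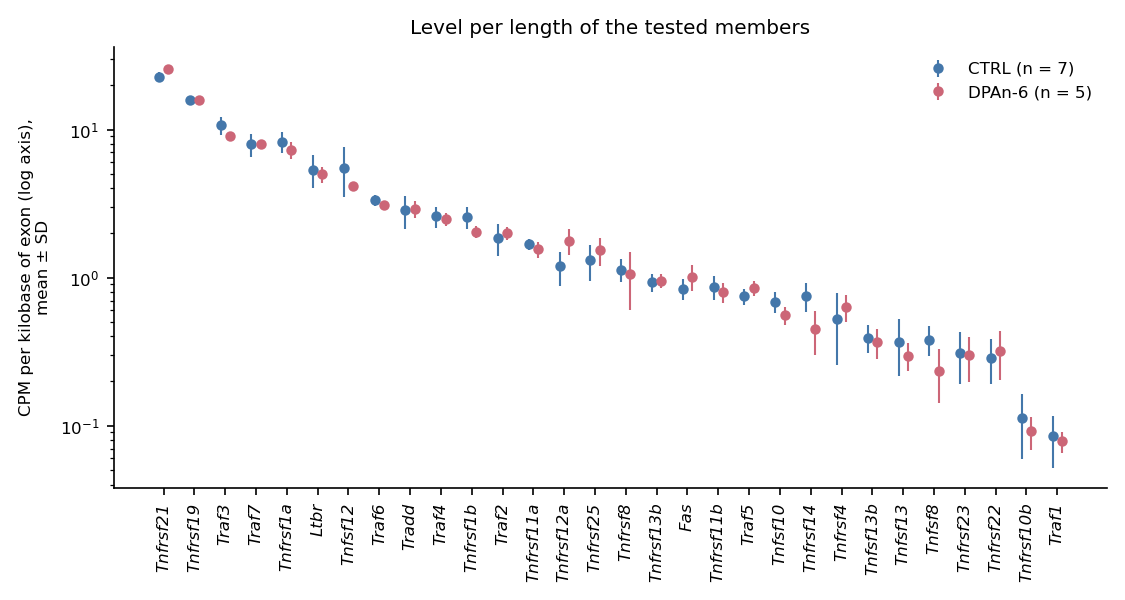
Level of the 30 tested members in CPM per kilobase of exon, on a log axis, as mean ± SD of 7 CTRL mice (blue) and 5 DPAn-6 mice (red), ordered by level. The members span from 22.7 for Tnfrsf21 to 0.0844 for Traf1 in CTRL, and the error bars of the groups overlap for most members.

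No member passed the test across all genes between DPAn-6 and CTRL. By edgeR's quasi-likelihood test with Benjamini-Hochberg adjustment, 0 of the 30 members had an adjusted p below 0.05, where 1.55% of all genes tested did, and the smallest adjusted p of a member was 0.123. At an unadjusted p below 0.05 there were 7 of 30 (23.3%), beside 14.5% of all genes tested. DESeq2 gave 0 called and 8 at an unadjusted p below 0.05, and limma-voom, the method the study names, gave 0 and 7. Of the 7 members 5 were lower in DPAn-6 (Tnfrsf14, Tnfsf8, Tnfrsf1b, Tnfsf10 and Traf3), where 9.02% of all genes were, and 2 were higher (Tnfrsf12a and Tnfrsf21), where 5.51% of all genes were. Tnfrsf1b and Tnfsf10 are genes the study itself discusses from these libraries, so their direction is not independent evidence.

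In the 30 members the log2 fold change ran from -0.77 to 0.55 with a median of -0.11, and over all genes tested the median was -0.0047. It was below 0 in 20 of the 30, beside 51.3% of all genes tested. In none of the 30 were the groups free of overlap, which 3.22% of all genes were. All 5 tested ligands, 10 of 17 receptors and 5 of 8 adaptors had a negative log2 fold change. The 5 ligands were below 0 also by DESeq2, by limma-voom and without TMM, and 20, 18 and 18 of the 30 members were. These fits use the same counts, and in 14-month mice only, Tnfsf13b had 0.03 (SE 0.23).

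**Figure D2:**
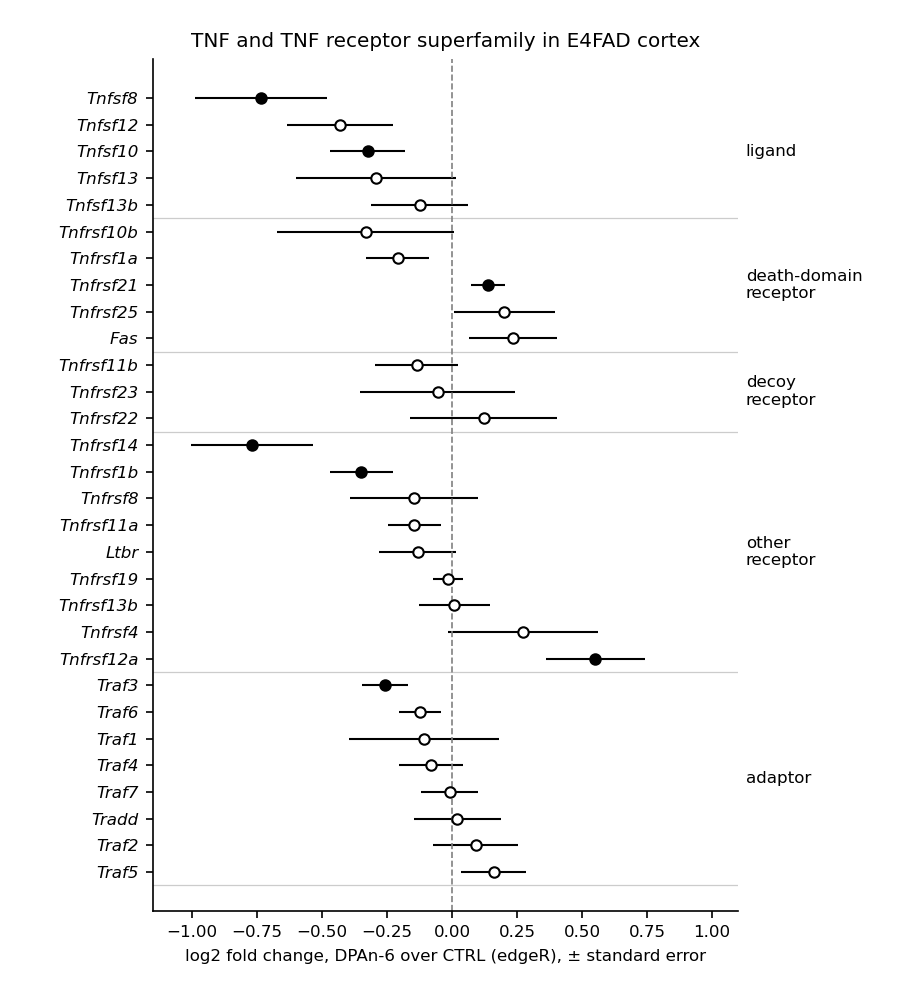
Log2 fold change of DPAn-6 (n = 5) over CTRL (n = 7) by edgeR with its standard error for the 30 tested members, grouped by role, with filled points for an unadjusted p below 0.05. The 5 ligands all lie left of 0, from -0.73 to -0.12, and the receptors spread from -0.77 for Tnfrsf14 to 0.55 for Tnfrsf12a.

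Of the 7 members with an unadjusted p below 0.05, 3 have a transcription start in RefSeq that equals the gene start in GENCODE, and the 250 bases before it are shown to set their promoters side by side. The sequences are from RefSeq GRCm38.p6, written 5′ to 3′ on the strand of the gene, with GGGCGG (the core of the GC box bound by Sp1) and GAGGAAG (a purine-rich core of the kind bound by ETS factors such as PU.1 of myeloid cells) in capitals on either strand. Tnfrsf1b lies at chr4:145246871-145247120 (minus strand), Traf3 at chr12:111166120-111166369 (plus strand) and Tnfrsf21 at chr17:43016305-43016554 (plus strand).
Tnfrsf1b: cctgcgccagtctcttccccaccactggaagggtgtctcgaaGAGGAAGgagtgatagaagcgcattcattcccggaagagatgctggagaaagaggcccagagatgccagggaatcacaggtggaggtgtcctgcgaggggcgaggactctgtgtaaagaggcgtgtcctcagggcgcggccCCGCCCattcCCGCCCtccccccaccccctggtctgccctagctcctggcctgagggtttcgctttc
Traf3: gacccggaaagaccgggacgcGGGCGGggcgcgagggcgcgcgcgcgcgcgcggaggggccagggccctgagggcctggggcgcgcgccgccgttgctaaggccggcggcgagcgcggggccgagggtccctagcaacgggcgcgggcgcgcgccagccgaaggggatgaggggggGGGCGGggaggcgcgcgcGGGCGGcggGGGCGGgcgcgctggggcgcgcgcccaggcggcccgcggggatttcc
Tnfrsf21: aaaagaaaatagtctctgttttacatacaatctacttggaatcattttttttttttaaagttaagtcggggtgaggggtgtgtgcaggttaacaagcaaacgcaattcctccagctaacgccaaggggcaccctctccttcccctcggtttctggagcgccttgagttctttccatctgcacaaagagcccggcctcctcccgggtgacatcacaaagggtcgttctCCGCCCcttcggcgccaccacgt
The Tnfrsf1b window, with 62.8% GC, held 1 GAGGAAG as printed and 2 GGGCGG on the other strand. The Traf3 window had 85.2% GC and 49 CpG pairs, with 4 GGGCGG, and the Tnfrsf21 window had 50.4% GC and 12 CpG pairs, with 1 GGGCGG. Of all 32851 windows of this length, 10.6% held GAGGAAG and 32.7% held GGGCGG. In the 28 windows found for 25 of the tested members, 5 held the first and 14 the second. The 2 motifs did not overlap each other in the printed windows, and a match describes the letters only.

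Tnfsf8 (ENSMUSG00000028362, chromosome 4, 63831308 to 63861347) had the most negative log2 fold change of the 5 tested ligands. It had 1.05, 1.47, 1.63, 1.89, 1.33, 1.02 and 1.74 CPM in CTRL replicates 1 to 7, from 10 to 33 reads per library over all mice. In DPAn-6 replicates 1 to 5 it had 0.870, 1.46, 0.503, 0.921 and 0.716 CPM. All DPAn-6 mice except replicate 2 lay below every CTRL mouse. DPAn-6 over CTRL gave a log2 fold change of -0.73 (standard error, SE, 0.25, edgeR unadjusted p = 0.0108, adjusted p = 0.176), and the two-sided exact permutation test gave p = 0.0139. Its receptor Tnfrsf8, which encodes CD30, had -0.15 (SE 0.25) on the log2 scale, with values in DPAn-6 from 1.36 to 5.39 CPM on both sides of the CTRL range.

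Tnfsf10 (ENSMUSG00000039304, chromosome 3, 27317028 to 27342427) encodes TRAIL, which can start apoptosis through a death-domain receptor. Its CPM in CTRL replicates 1 to 7 was 3.51, 3.65, 3.91, 3.44, 2.82, 4.64 and 3.31. In DPAn-6 it was 2.39, 2.86, 2.72, 3.22 and 3.43. All 5 DPAn-6 mice lay below the CTRL mean of 3.61, and 2 lay below every CTRL mouse. The log2 fold change of -0.32 (SE 0.14) had an edgeR unadjusted p of 0.0397 and an adjusted p of 0.312. Of 23 alternative fits, 14 gave an unadjusted p above 0.05. Among them were those without CTRL replicate 2 (-0.32, edgeR unadjusted p = 0.0538) or 3 (-0.30, edgeR unadjusted p = 0.0597), with log2 fold changes about as large.

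The receptors for TRAIL did not pass the test in either direction. The death-domain receptor Tnfrsf10b had a log2 fold change of -0.33 (SE 0.34), and the decoys Tnfrsf22 and Tnfrsf23 had 0.12 (SE 0.28) and -0.05 (SE 0.30). Tnfrsf10b had 4 to 16 reads per library, and the 95% interval of its log2 fold change reached from -1.06 to 0.39, which includes changes of either sign.

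Tnfsf12 (ENSMUSG00000097328, chromosome 11, 69686250 to 69695849), the ligand TWEAK, did not pass an unadjusted p of 0.05 in the main fit. CTRL replicates 1 to 7 had 7.37, 9.16, 14.99, 6.53, 6.31, 6.42 and 7.80 CPM, and DPAn-6 mice had 6.74, 6.11, 6.54, 5.85 and 6.26. CTRL replicate 3 stood far above the others. Log2 fold changes were -0.43 (SE 0.20, edgeR unadjusted p = 0.0509) with this mouse and -0.22 without it (edgeR unadjusted p = 0.0667). Of 23 alternative fits, 6 gave an unadjusted p below 0.05, DESeq2 among them (DESeq2 unadjusted p = 0.0384). The other ligands, Tnfsf13 and Tnfsf13b, had log2 fold changes of -0.29 (SE 0.31) and -0.12 (SE 0.19).

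Tnfrsf12a (ENSMUSG00000023905, chromosome 17, 23675445 to 23677468) encodes Fn14, the receptor of TWEAK, a small receptor known to be induced by injury and growth factors. It had the most positive log2 fold change of the 30 tested members. CTRL replicates 1 to 7 had 2.28, 3.20, 1.17, 2.18, 2.41, 2.48 and 2.36 CPM, and DPAn-6 replicates 1 to 5 had 4.13, 3.36, 3.82, 2.37 and 3.39. All but 1 of the DPAn-6 mice lay above every CTRL mouse, and CTRL replicate 3 was the lowest of all 12. Its log2 fold change of 0.55 (SE 0.19) had an edgeR unadjusted p of 0.0110, an adjusted p of 0.177 and an exact permutation p of 0.0215. Without CTRL replicate 3 the value was 0.45 (edgeR adjusted p = 0.0928). When the dependence of each library on transcript length and GC content was taken out, an alternative added after seeing the data, the edgeR adjusted p was 0.0414. In that fit 526 of 15660 genes tested were called, against 243 of 15688 in the main fit. The ligand and this receptor had estimates of opposite sign, but neither was called in the main test.

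Tnfrsf1b (ENSMUSG00000028599, chromosome 4, 145213463 to 145246870) encodes TNFR2, which lacks a death domain and binds TRAF2. CTRL replicates 1 to 7 had 11.5, 11.7, 7.89, 7.85, 8.87, 9.98 and 10.7 CPM. DPAn-6 replicates 1 to 5 had 8.64, 8.41, 6.84, 7.56 and 7.62 CPM. The DPAn-6 values all lay below the CTRL mean of 9.79, and those of 3 mice lay below every CTRL mouse. With a log2 fold change of -0.35 (SE 0.12), the edgeR unadjusted p was 0.0113 and the adjusted p 0.179. The exact permutation p was 0.0316 with all mice, and it lay between 0.0628 and 0.0848 when any of 7 mice was left out (CTRL replicate 1, 2, 6 or 7 or DPAn-6 replicate 3, 4 or 5). Without CTRL replicate 2 the edgeR fit gave -0.30 (unadjusted p = 0.0232).

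Tnfrsf1a (ENSMUSG00000030341, chromosome 6, 125349362 to 125362484), which encodes the death-domain receptor TNFR1, overlapped more between the groups. It had 23.7, 27.2, 22.9, 20.001, 16.9, 19.0 and 20.6 CPM in CTRL and 19.4, 20.2, 15.8, 16.9 and 22.1 CPM in DPAn-6. Its highest value was that of CTRL replicate 2. The log2 fold change was -0.21 (SE 0.12, edgeR unadjusted p = 0.107) with this mouse and -0.14 (edgeR unadjusted p = 0.226) without it. With all mice its 95% interval ran from -0.47 to 0.05, which includes the estimate for Tnfrsf1b, and the difference between the TNF receptors was not tested.

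Tnfrsf14 (ENSMUSG00000042333, chromosome 4, 154921933 to 154928563) encodes HVEM, a receptor for LIGHT. It had 1.29, 1.35, 0.782, 0.745, 1.03, 1.24 and 1.18 CPM in CTRL, from 7 to 23 reads per library over all mice. In DPAn-6 it had 0.598, 1.01, 0.553, 0.460 and 0.603 CPM. Again DPAn-6 replicate 2 alone lay within the CTRL range. The log2 fold change of -0.77 (SE 0.23) had the smallest edgeR p of the 30 tested members (unadjusted p = 0.00503, adjusted p = 0.123). Its exact permutation p was 0.0114. The adjusted p was 0.0505 without CTRL replicate 3 and 0.199 without CTRL replicate 2.

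Tnfrsf21 (ENSMUSG00000023915, chromosome 17, 43016555 to 43089189) encodes death receptor 6, known from studies of axon pruning and of oligodendrocytes. It had 94.2, 79.4, 96.0, 96.0, 92.4, 93.6 and 103 CPM in CTRL and 106, 102, 111, 101 and 104 CPM in DPAn-6. Every DPAn-6 mouse was above the CTRL mean of 93.4, and CTRL replicate 2 was the lowest of all 12. The edgeR log2 fold change was 0.14 (SE 0.065, edgeR unadjusted p = 0.0493, adjusted p = 0.342). In log2 CPM without TMM the means were 6.54 in CTRL and 6.71 in DPAn-6 (exact permutation p = 0.00884). Without CTRL replicate 2 the edgeR log2 fold change was 0.10 (edgeR unadjusted p = 0.0833), and with the Ttr level as a covariate it was 0.05 (edgeR unadjusted p = 0.549). The median of Ttr was 24.1 CPM in CTRL and 4.78 in DPAn-6, so the covariate takes up part of the group difference.

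The remaining receptors gave log2 fold changes between -0.15 and 0.27. Fas had 0.24 (SE 0.17) and Tnfrsf25, the death receptor for Tnfsf15, had 0.20 (SE 0.19). Tnfrsf11a had -0.14 (SE 0.10), Ltbr -0.13 (SE 0.15) and Tnfrsf11b -0.14 (SE 0.16). Tnfrsf4, which encodes OX40, had 0.27 (SE 0.29), and Tnfrsf13b, which encodes the BAFF and APRIL receptor TACI, had 0.01 (SE 0.14). Tnfrsf19 was the most precise, with -0.01 (SE 0.059) and a 95% interval from -0.14 to 0.11.

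Of the 8 adaptors 1 had an unadjusted p below 0.05 (12.5%, beside 14.5% of all genes tested). This was Traf3 (ENSMUSG00000021277, chromosome 12, 111166370 to 111267153). TRAF3 holds the kinase NIK at a low level and so restrains the non-canonical NF-kB pathway. CTRL replicates 1 to 7 had 85.2, 93.7, 59.8, 70.9, 80.5, 81.2 and 80.1 CPM, whereas DPAn-6 replicates 1 to 5 had 68.2, 66.1, 66.5, 65.8 and 68.0. The DPAn-6 mice lay within a narrow band (SD 1.12 against 10.8 in CTRL) that CTRL replicate 3 alone undercut. The fit gave a log2 fold change of -0.26 (SE 0.087, edgeR unadjusted p = 0.00958, adjusted p = 0.166, exact permutation p = 0.0480).

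For Traf3 the call turned on 1 library. Without CTRL replicate 3, the edgeR adjusted p was 0.00862 with a log2 fold change of -0.31. In that fit 953 of 15616 genes tested were called, against 243 of 15688 with all mice, so the rise was not particular to Traf3. Without CTRL replicate 2 the log2 fold change was -0.21 (edgeR unadjusted p = 0.0180, adjusted p = 0.252). The exact permutation p, without TMM, lay between 0.0576 and 0.0667 when any 1 of 10 mice was left out, all but CTRL replicates 3 and 4. On TMM-scaled values, added after seeing the data, the exact permutation p with all mice was 0.0265. With the Ttr level as covariate, which itself differed between the groups, the log2 fold change was -0.20 (edgeR unadjusted p = 0.102).

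The other 7 adaptors gave log2 fold changes from -0.12 (Traf6, SE 0.081) to 0.16 (Traf5, SE 0.12). Traf7, Tradd and Traf2 had -0.01, 0.02 and 0.09, with SEs of 0.11, 0.17 and 0.16, and in each CTRL replicate 3 was the lowest CTRL mouse. Traf4 had -0.08 (SE 0.12) and Traf1 -0.11 (SE 0.29).

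**Figure D3:**
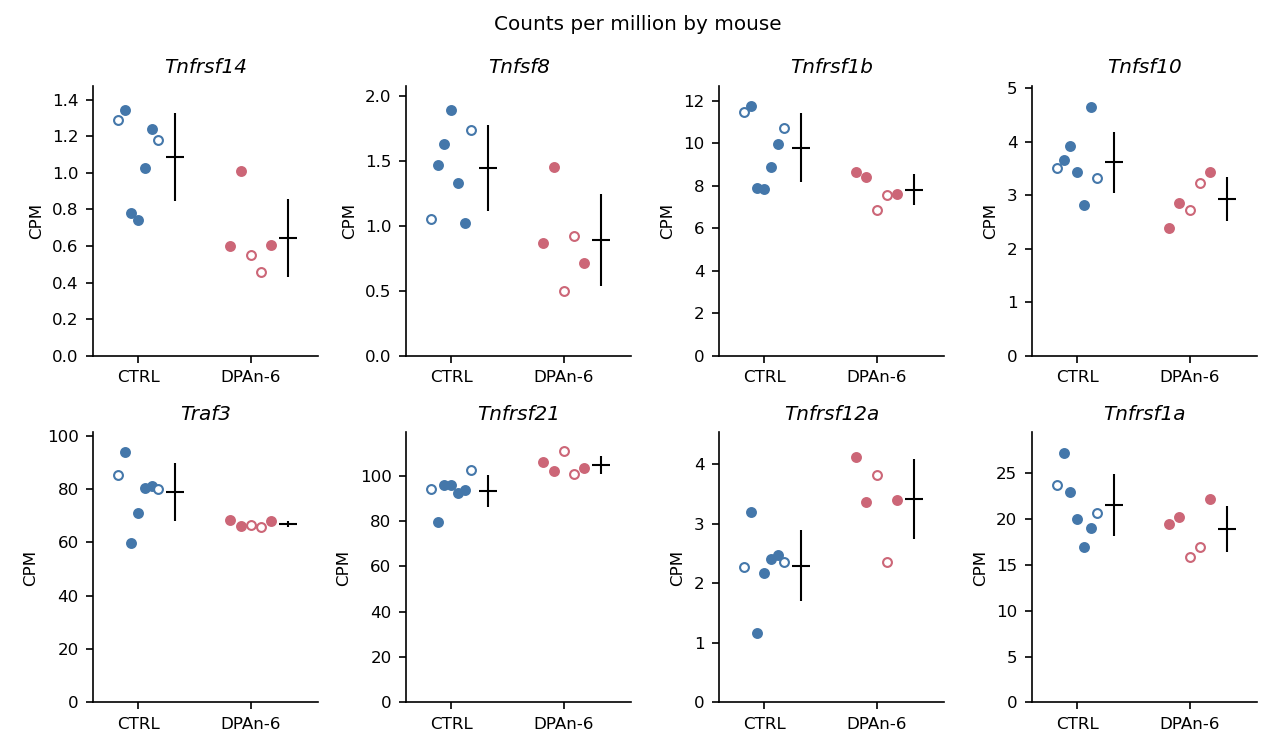
CPM of each mouse for the 7 members with an unadjusted p below 0.05 and for Tnfrsf1a, with CTRL in blue, DPAn-6 in red, open points for 12-month and filled points for 14-month mice, and mean ± SD beside the points. The groups overlap in every panel, and in Traf3 the 5 DPAn-6 mice lie between 65.8 and 68.2 CPM.

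Age was compared as 12-month mice (2 CTRL, 2 DPAn-6) and 14-month mice (5 CTRL, 3 DPAn-6). Tnfrsf1b had a log2 fold change of -0.63 at 12 months (edgeR adjusted p = 0.0363) and -0.19 at 14 months (adjusted p = 0.741). Traf3 had -0.33 at 12 months (adjusted p = 0.0422) and -0.22 at 14 months (adjusted p = 0.663). At 14 months 0 members were called, and Tnfsf13 was too low to be tested at 12 months. Of all genes tested, 4.55% were called at 12 months and 0.0564% at 14 months. The 12-month fit was added after seeing the data.

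Of the 29 members tested at both ages, 21 had log2 fold changes of the same sign and 8 of opposite sign. Tnfrsf14 had -1.26 and -0.52, Tnfsf8 -1.02 and -0.58, and Tnfrsf12a 0.43 and 0.64 at 12 and 14 months. Tnfrsf1a had -0.45 at 12 months (edgeR unadjusted p = 0.00340, adjusted p = 0.0610) and -0.06 at 14 months. The difference between the ages itself was not shown for any member. In the interaction of group and age, 0 of 30 members had an unadjusted p below 0.05 (4.26% of all genes tested did), and the smallest was 0.105, for Tnfrsf1b. DESeq2 and limma-voom also gave 0 of 30.

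Beyond the members, 72 genes of the pathway were described in 4 lists, of which 60 were tested. By edgeR none had an adjusted p below 0.05, and 6 of 60 (10%) had an unadjusted p below 0.05, beside 14.5% of all genes tested. By DESeq2 7 genes had an unadjusted p below 0.05 and 1 of them, Ikbke, was called (DESeq2 adjusted p = 0.0403). By limma-voom 5 had an unadjusted p below 0.05 and 0 were called. All 6 belonged to the proteins of the receptor complexes and of ligand shedding, of which 30 of 33 were tested, with 5 lower and 1 higher.

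Ikbke, which encodes a noncanonical IkB kinase, was the one pathway gene of 60 whose groups did not overlap, which was so for 3.22% of all genes tested. It had 1.29 to 2.43 CPM in CTRL (median 1.81) and 0.707 to 1.29 in DPAn-6 (median 1.17), where the highest DPAn-6 value was just under the lowest CTRL value. Its log2 fold change was -0.73 (SE 0.20, edgeR adjusted p = 0.0930, exact permutation p = 0.00379). Rhbdf2, a rhomboid protein that guides the TNF-cutting protease ADAM17 to the cell surface, had -0.52 (SE 0.17, edgeR adjusted p = 0.154), while Adam17 itself had -0.14 (SE 0.11).

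Of the proteins that act on the receptor complex, Tnfaip3, which encodes the NF-kB inhibitor A20, had -0.35 (SE 0.13, edgeR adjusted p = 0.201). Ripk1, a kinase at the branch between survival and cell death, had -0.39 (SE 0.17), and Cflar, which encodes the caspase-8 inhibitor FLIP, had -0.25 (SE 0.098). Map3k5, which encodes the stress kinase ASK1, was the one in the other direction, at 0.17 (SE 0.077, edgeR adjusted p = 0.314). For Ripk1 the two-sided exact permutation test gave p = 0.0556.

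NF-kB subunits, IkB proteins and their kinases were all tested, and 0 of 14 had an unadjusted p below 0.05. Of these 9 had a negative log2 fold change, with a list median of -0.09. In the genes that TNF induces through NF-kB in many cells, 11 of 12 tested had a negative log2 fold change with a median of -0.17, and again 0 had an unadjusted p below 0.05. Il6, Ccl2 and Cxcl1, classic targets of TNF, had at most 4, 8 and 3 reads in any library and were not tested. Csf1 of this list is also a marker in the list for disease-associated microglia used here. In superfamily members of other symbols, such as Ngfr and Eda, 4 of 8 were tested and 0 had an unadjusted p below 0.05.

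**Figure D4:**
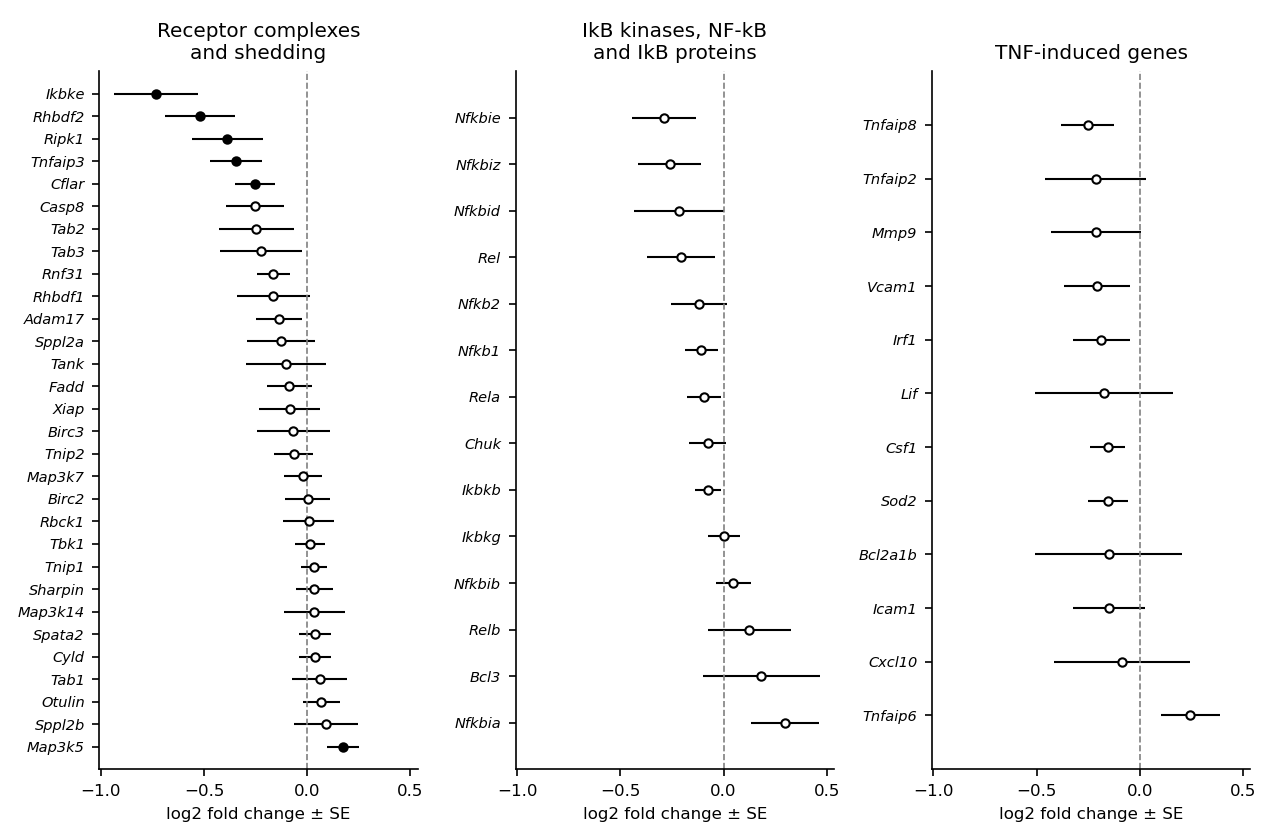
Log2 fold change of DPAn-6 (n = 5) over CTRL (n = 7) by edgeR with its standard error for the tested genes of 3 pathway lists, with filled points for an unadjusted p below 0.05. Filled points occur in the list of receptor complexes and shedding alone, with 5 left and 1 right of 0, and in the TNF-induced genes 11 of 12 points lie left of 0.

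Markers of microglia and of border-associated macrophages were mostly lower in DPAn-6, and which cells express the members was not measured. Summed over 16 genes, homeostatic microglia markers had 1160 to 1553 CPM in CTRL and 870 to 1091 in DPAn-6, with 15 of 16 lower and 4 with an adjusted p below 0.05. Of 17 markers of disease-associated microglia 15 were lower and 5 were called, with sums of 3692 to 4924 and 3349 to 3999 CPM. Markers of border-associated macrophages had 10.9 to 16.5 CPM in CTRL and 4.64 to 7.04 in DPAn-6, and all 5 tested were lower, 3 of them called. The study also discusses Tmem119, Cd68 and Trem2 of these lists, so these are not independent evidence. The part of these cells in the values of Tnfrsf1b, Tnfrsf14, Tnfsf8 and Ikbke was not tested.

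Of the other lists, 2 held called genes. Pericyte and smooth muscle markers had 325 to 371 CPM in CTRL and 285 to 304 in DPAn-6 (8 of 8 lower, 1 called), and meningeal fibroblast markers 50.7 to 72.8 and 30.8 to 60.4 (7 of 7 lower, 2 called). Choroid plexus markers had 13.4 to 1681 CPM in CTRL and 7.90 to 23.8 in DPAn-6. All 5 that were tested had a negative log2 fold change (median -2.71) with an unadjusted p below 0.05, and 0 were called. Astrocyte sums overlapped, at 7407 to 11331 and 6655 to 8218 CPM (7 of 10 lower, 3 with an unadjusted p below 0.05, 0 called). Endothelial sums overlapped, at 491 to 579 and 482 to 521 CPM (7 of 12 lower, 0 called). So did those of oligodendrocyte precursors, at 390 to 495 and 396 to 457 CPM (6 of 7 lower, 0 called). General and excitatory neuron sums were 12775 to 17127 and 13618 to 14007 CPM (8 of 9 higher, 0 called). Sums for inhibitory neurons were higher in DPAn-6, at 624.8 to 764.6 and 779 to 911 CPM (7 of 7 higher, 0 called), and those for oligodendrocytes overlapped, at 5225 to 6929 and 6156 to 7004 CPM (8 of 10 higher, 0 called). T and natural killer cell markers summed to 1.90 to 9.71 and 2.83 to 6.50 CPM and B cell markers to 0.585 to 1.12 and 0.503 to 1.18 CPM. No marker was at 0 in every library. The part of these lists in the values of the members was not tested.

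**Figure D5:**
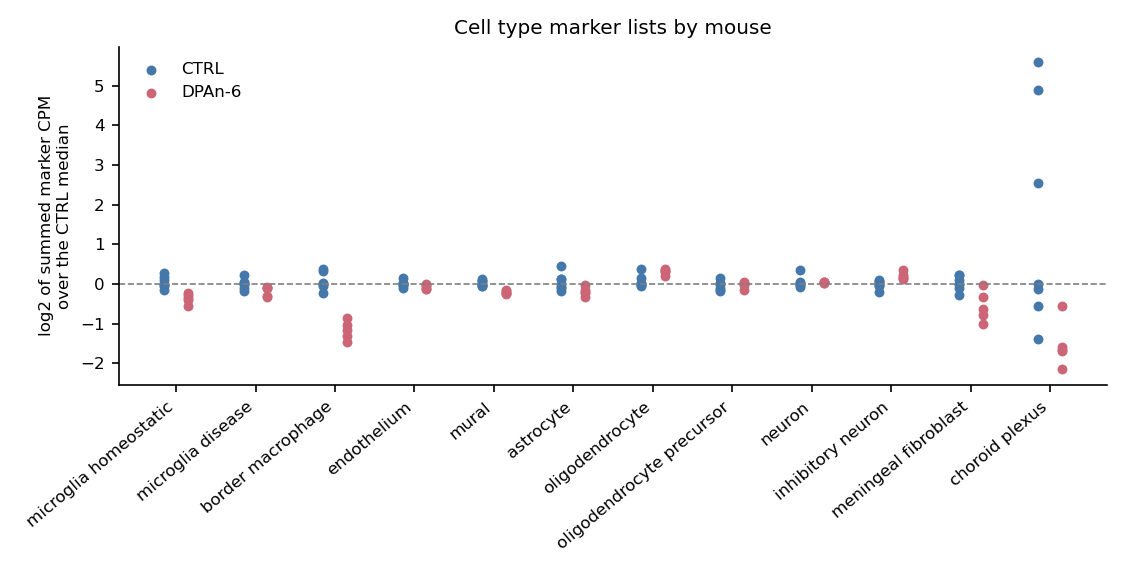
Log2 of the summed CPM of 12 marker lists in each mouse over the CTRL median, with CTRL in blue (n = 7) and DPAn-6 in red (n = 5). The border-associated macrophage points of DPAn-6 (4.64 to 7.04 CPM) lie below all CTRL points (10.9 to 16.5 CPM), and choroid plexus markers range from 13.4 to 1681 CPM in CTRL and from 7.90 to 23.8 CPM in DPAn-6.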

How the data were processed

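Cortex RNA of 12 mice was sequenced by the authors from poly(A)-selected KAPA mRNA libraries on a HiSeq instrument. Per the labels and methods, reads were aligned with STAR (2.5.3a in the submitters' processing notes) to GRCm38 and counted per gene. The deposited values are raw counts, whose strand column is not given in the sources used here. Antisense genes may therefore share reads.

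Gene names, positions and exon lengths came from GENCODE M21 on GRCm38, which held 50339 of the 50563 rows, and promoters from RefSeq (37 of 47 members matched). CPM used the total count on genes, and log2 CPM a pseudocount of 0.5. Groups were compared with edgeR 4.0.16 in R 4.3.3 (TMM, filterByExpr, glmQLFTest, no covariate, two-sided, Benjamini-Hochberg over 15688 genes), and 95% intervals used its t quantile. Single genes were also compared by an exact permutation test over 792 splits of the mice, whose smallest p is 0.00126 and which was not adjusted over genes. Each replicate is another mouse. Both procedures were tested on simulated data.

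The alternatives were DESeq2 1.42.0, limma-voom (limma 3.58.1), library totals without TMM, no filter, at least 1 CPM in 5 mice, age or Ttr as covariate, 14-month mice only, a replicate block and each mouse left out. Added after seeing the data were removal of the length and GC trend, 12-month mice only and TMM-scaled permutation values. The members and lists were chosen with earlier results of these data known. Mouse by mouse values are given for members with an unadjusted p below 0.05, for Tnf, Tnfrsf1a, Tnfrsf1b and Tnfsf10, and, chosen after their values were seen, for Tnfsf12, Tnfrsf9, Tnfrsf17 and Tnfsf18. Levels per length are given for the 10 highest members, all tested ligands and, chosen after their values were seen, Tnfrsf1b, Tnfrsf11a, Tnfrsf11b, Tnfrsf10b and Traf1. The other members are given by log2 fold change.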

Additional observations from a re-analysis of the deposited data

Results flagged for a closer look

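In the 60 groups of log2 CPM values looked at (30 members in 2 groups), 10 held 1 mouse far from the others, where chance alone gives about 1 in 20 groups, and 5 of the 10 were CTRL replicate 3. In CTRL replicate 3, the log2 CPM of Tnfrsf12a was 0.27 (other CTRL mice 1.14 to 1.69), of Tradd 1.57 (2.29 to 2.77), of Traf2 2.20 (3.16 to 3.50) and of Traf7 4.95 (5.49 to 5.81), each the lowest, while Tnfsf12 was the highest at 3.91 (2.66 to 3.20). In CTRL replicate 2, Ltbr was highest at 4.28 (3.31 to 3.68), Traf5 highest at 2.11 (1.58 to 1.80) and Tnfrsf21 lowest at 6.31 (6.53 to 6.68). In DPAn-6, Traf2 was lowest in replicate 4 at 3.08 (3.36 to 3.45) and Traf4 lowest in replicate 1 at 2.76 (3.05 to 3.15).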

How the results depend on the processing

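The count of all genes called was 243 in the reported fit. It was 696 by DESeq2, 17 with Ttr as covariate, 9 in 14-month mice only, 526 with the length and GC trend removed, 709 in 12-month mice only and 64 to 953 with single mice left out. The 953 were called without CTRL replicate 3. Members called went from 0 to 1 with the trend removed (Tnfrsf12a), to 2 in 12-month mice (Tnfrsf1b and Traf3) and to 0 or 1 with single mice left out, where Traf3 was called without CTRL replicate 3. Members with an unadjusted p below 0.05 went from 7 to 1 in 14-month mice (Tnfrsf12a) and to 5 to 8 with single mice left out. They were 6 both without CTRL replicate 2 and without CTRL replicate 3. Pathway genes with an unadjusted p below 0.05 went from 6 to 10 without a filter, 2 with Ttr as covariate, 2 in 14-month mice, 12 in 12-month mice and 3 to 9 with single mice left out. Members with an interaction of group and age went from 0 to between 0 and 2 with single mice left out, with Tnfrsf1b and Tnfrsf1a without CTRL replicate 2 and Tnfrsf8 without DPAn-6 replicate 4. Deviations of mice with the same replicate number correlated between -0.125 and 0.226, so the numbers do not pair the mice, and the replicate block gave 79 genes called, 0 members called and 6 members at an unadjusted p below 0.05. In the 23 alternative fits no sign reversed for the 7 members, Tnfsf12 or Tnfrsf1a. With Ttr as covariate the log2 fold changes of Tnfrsf14, Tnfsf8, Tnfrsf1b and Tnfsf10 were -0.81, -0.84, -0.36 and -0.37. Those of Tnfrsf12a, Traf3 and Tnfrsf21 were 0.67, -0.20 and 0.05, and those of Tnfsf12 and Tnfrsf1a -0.24 and -0.11. In 14-month mice Tnfrsf14, Tnfsf8, Tnfrsf1b and Traf3 passed an unadjusted p of 0.05 no longer, while in 12-month mice Tnfrsf12a did not. Tnfsf10 lost it in 14 and Tnfrsf21 in 15 of the 23. Tnfsf12 and Tnfrsf1a, above 0.05 in the reported fit, fell below it in 6 and 2 of the 23. Where the cause is not the smaller number of mice, it was not tested.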
